A study of Mus musculus with 4 samples.

Results

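The genes described here encode the NFAT transcription factors Nfatc1, Nfatc2 and Nfatc3, the calcineurin catalytic subunits Ppp3ca and Ppp3cb, and the calcineurin inhibitor Rcan1. They were taken as all probe sets that the platform annotation maps to 1 of these 6 gene symbols alone, which gave 9 of 12422 probe sets that are not array controls, and 6 of 8251 named genes. The arrays carry RNA of a mouse Th1 clone, a line of helper T cells that makes interferon gamma. Arrays Control1 and Control2 hold the normal, quiescent clone. Arrays Anergic1 and Anergic2 hold the clone after it was made anergic on anti-CD3 antibody bound to a plate, which engages the T cell receptor complex. The question was which genes are expressed at another level in anergy, a state in which a T cell responds poorly to its stimulus. As the groups are described, only the anergic cells were exposed to the antibody. Effects of that exposure and of the anergic state therefore cannot be told apart here. The sources used here do not give mouse strain, age or time on the antibody. Both groups come from a cloned line, and nothing in the labels says that the 2 arrays of a group were separate cultures, so p-values measure only how far these arrays differ, in part perhaps for technical reasons.

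When the T cell receptor is engaged, calcium rises in the cell and, through calmodulin, switches on calcineurin, a phosphatase made of a catalytic and a regulatory subunit. Calcineurin removes phosphates from NFAT proteins, which then enter the nucleus and bind DNA, often beside AP-1. In T cells this pathway drives cytokine genes, and NFAT acting without AP-1 is tied in the literature to the anergic programme. Much of this control acts on the proteins, which an RNA measurement does not read.

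Rcan1 is a textbook target of NFAT, read from alternative starts, and its 2 start windows in RefSeq (GRCm38.p6, 250 bases before to 50 after each start, 5′ to 3′) are shown because this gene serves as a readout of the pathway. The window of Ppp3cb is shown because this gene had the largest difference among the members, though that difference did not pass (adjusted p = 0.647 by limma). Whether core matches bear on expression was not tested. Capitals mark GGAAA, the core of NFAT sites, or TTTCC, the same core on the opposite strand. The Rcan1 windows lie on the minus strand at chr16:92466120-92466419 (outer) and chr16:92400029-92400328 (inner, its start 66091 bases further into the gene), and the Ppp3cb window on the minus strand at chr14:20546524-20546823.
Rcan1 outer start: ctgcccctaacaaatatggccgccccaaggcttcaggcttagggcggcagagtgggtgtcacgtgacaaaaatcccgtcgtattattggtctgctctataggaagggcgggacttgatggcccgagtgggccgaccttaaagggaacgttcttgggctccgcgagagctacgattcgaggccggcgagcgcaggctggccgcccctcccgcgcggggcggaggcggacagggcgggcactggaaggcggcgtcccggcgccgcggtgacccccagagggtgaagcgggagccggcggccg
Rcan1 inner start: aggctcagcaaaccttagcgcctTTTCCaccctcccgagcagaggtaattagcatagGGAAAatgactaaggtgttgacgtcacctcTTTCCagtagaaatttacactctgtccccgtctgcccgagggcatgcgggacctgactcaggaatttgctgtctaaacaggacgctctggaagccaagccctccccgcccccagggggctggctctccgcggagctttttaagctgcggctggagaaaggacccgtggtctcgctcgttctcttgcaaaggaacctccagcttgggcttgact
Ppp3cb start: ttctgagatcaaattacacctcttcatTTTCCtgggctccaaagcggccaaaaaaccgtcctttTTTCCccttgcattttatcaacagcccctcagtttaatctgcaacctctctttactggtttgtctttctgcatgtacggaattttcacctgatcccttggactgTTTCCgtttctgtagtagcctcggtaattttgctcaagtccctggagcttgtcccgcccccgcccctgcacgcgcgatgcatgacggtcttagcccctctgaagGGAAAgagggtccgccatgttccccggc

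The outer Rcan1 window held 0 matches to the core and the inner window held 3, along with 1 match to the AP-1 motif TGANTCA, which reads the same way on both strands and overlaps none of the cores. The Ppp3cb window held 4 core matches. Of 32851 windows of the same length, 61.3% held at least 1 core, 9.42% at least 3, 2.65% at least 4, and 7.81% the AP-1 motif. The windows of Nfatc2 held 3 and 1 core matches and those of Nfatc3 held 1 and 0. RefSeq windows were used for 4 of the 6 members. For members alone, windows on 1 chromosome were left out, while the 32851 windows were not filtered in this way. None was used for Nfatc1 or Ppp3ca, whether left out by this filter or absent, so no core matches are given for these genes. A match is a match of letters only, and the annotation does not say which Rcan1 start the probe set reads.

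Values are intensities on a linear scale, scaled by array before deposit, and their number, 2 arrays a group, limits the precision. The mean after trimming 2% at each end was 500.3 on all 4 arrays, while medians ran from 134.2 to 191.2. Pearson's r of log2 values across the 7453 probe sets tested was 0.925 for the control pair and 0.944 for the anergic pair. It was 0.924 and 0.921 across groups for arrays of like number, and 0.891 and 0.887 for unlike numbers. T cell genes were bright, with 7 of the 8 listed markers measured, and Cd4 was between 3942 and 5106 on the 4 arrays. Both measured genes of the CD8 coreceptor were at or under 21.9. The summed markers of macrophages and dendritic cells were 1389 and 1835 in control and 1698 and 2377 in anergic cells. Of these 9 markers Cd68 alone was called, from 71 and 91.3 to 498 and 532. Below the filter, Lyz2 went from 129.1 and 73.3 to 11.7 and 11.4 and C1qa from 73.2 and 45.8 to 24.3 and 37.4. Also below it, Fcgr3 went from 27.1 and 32.1 to 58.5 and 79.3 and Adgre1 from 24 and 20.2 to 36.4 and 36.9. In Cd14, Csf1r, Itgax and C1qb the groups overlapped. The summed markers of fibroblasts and stroma were 3314.5 and 4348 in control and 5727 and 5799 in anergic cells, without overlap, and of these 5 genes Lum was the brightest, at 1674 and 2519 in control and 4398.5 and 3752 in anergic cells. Of the other markers of that class, Col1a2 was at 1242 and 1412 in control and 1015.5 and 1584 in anergic cells. Col1a1 was at 291.7 and 302.5 and then at 187.7 and 341.9, so the groups overlapped for both. Below the filter, Col3a1 was at 95.4 and 78.7 in control and 70.4 and 60.6 in anergic cells. Dcn, also below it, was at 11.7 and 35.3 and then at 54.7 and 60.6. The sums of the remaining classes overlapped between groups or, for CD8 T and NK cells, were at or under 65.8. Their part in the values of the NFAT genes was not tested.

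None of the 6 genes passed the threshold for a difference between the groups. Of the 9 probe sets, 7 passed the filter on low values, and limma called 0 of these 7, against 1.34% of all probe sets tested (0.912% higher and 0.429% lower in anergic cells). None of the 7 had an unadjusted p under 0.05, against 11.3% of all tested. In 4 of the 7 the groups did not overlap, against 40.3% of all tested. In 2 of these both anergic arrays were above both control arrays, against 16.8% of all tested, and in 2 they were below, against 23.5%. The median log2 difference was 0.07 over the 7 and -0.09 over all probe sets tested. Adjusted p-values (limma, Benjamini-Hochberg over 7453 probe sets) lay between 0.613 and 0.972. The 95% intervals of all 7 lay between -1.58 and 1.07 on the log2 scale, where the smallest difference called anywhere on the array was 1.21 in size. Differences within these intervals cannot be told from 0 at 2 arrays a group.

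**Figure D1:**
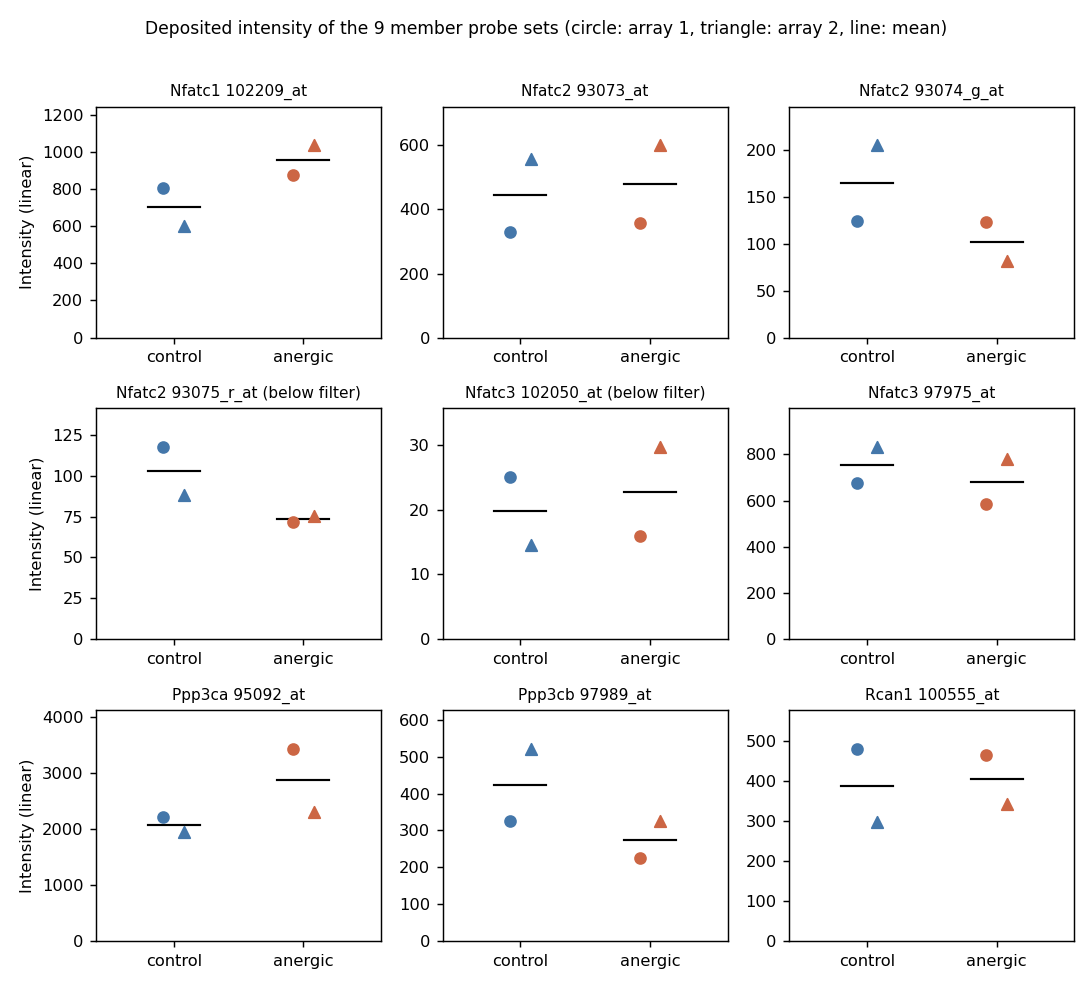
Deposited intensity (linear axis from 0) of the 9 probe sets on each array, with circles for arrays numbered 1, triangles for arrays numbered 2 and a line at the mean of each group. Nfatc1 and Ppp3ca sit higher and Ppp3cb sits lower in anergic cells, though none of these differences was called. Nfatc2 (93073_at), Nfatc3 (97975_at) and Rcan1 separate by array number and not by group.

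Nfatc1 encodes the NFAT protein also known as NFATc1, which is itself induced by NFAT in stimulated T cells. Its probe set was at 804.9 and 602.2 on control arrays 1 and 2, and at 879.1 and 1038 on anergic arrays 1 and 2. Both anergic arrays were above both control arrays, by a small margin for array 1. The control mean was 704 ± 143 and the anergic mean 958 ± 112 (SD, n = 2 each), which is 1.36-fold higher. The log2 difference was 0.44 ± 0.28 (SE, 95% interval -0.19 to 1.07, adjusted p = 0.625 by limma). Within the arrays numbered 1 the log2 difference was 0.12, and within those numbered 2 it was 0.76.

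Nfatc2 encodes a main NFAT protein of peripheral T cells, present before stimulation, and its 3 probe sets differed in sign. The brightest, 93073_at, was at 329 and 558.8 in control and at 357.1 and 600.7 in anergic cells. The groups overlapped, and on this probe set both arrays numbered 2 were above both arrays numbered 1. The log2 difference between groups was 0.10 ± 0.38 (SE, 95% interval -0.76 to 0.97, adjusted p = 0.964 by limma), where the control arrays differed from each other by 0.72 and the anergic arrays by 0.71. The probe set 93074_g_at was at 124.1 and 205.4 in control and at 123 and 81.9 in anergic cells. Its control array 1 and anergic array 1 were nearly equal, so the groups were separated by 1.1 intensity units, and the difference came from the arrays numbered 2. Its log2 difference was -0.54 ± 0.45 (SE, 95% interval -1.58 to 0.50, adjusted p = 0.755 by limma). The probe set 93075_r_at stayed below the filter, at 117.6 and 88.2 in control and 71.5 and 75.3 in anergic cells. Fitted without the filter, it differed by -0.36 ± 0.46 (SE, adjusted p = 0.947 by limma). The data thus gave no single direction for Nfatc2.

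Nfatc3 encodes an NFAT protein expressed in thymocytes and T cells. Its probe set 97975_at was at 677.4 and 832.7 in control and at 584.3 and 781.1 in anergic cells. The groups overlapped, and both arrays numbered 2 were above both numbered 1. The means were 755 ± 110 and 683 ± 139 (SD, n = 2 each), and the log2 difference was -0.15 ± 0.28 (SE, 95% interval -0.80 to 0.51, adjusted p = 0.922 by limma). The other probe set, 102050_at, was dim, from 14.5 to 29.7 on the 4 arrays, around the pseudocount of 29.15 that was added before taking log2. It did not pass the filter, its groups overlapped, and its difference was 0.08 ± 0.27 (SE, adjusted p = 0.979 by limma without the filter).

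Ppp3ca and Ppp3cb encode the alpha and beta forms of the catalytic subunit of calcineurin, and their differences had opposite signs. Ppp3ca was at 2207 and 1936 in control and at 3429 and 2293 in anergic cells. Both anergic arrays were above both control arrays, anergic array 2 by less than the anergic arrays differed from each other. The means were 2071 ± 192 and 2861 ± 803 (SD, n = 2 each), 1.35-fold apart, and the log2 difference was 0.43 ± 0.26 (SE, 95% interval -0.17 to 1.04, adjusted p = 0.613 by limma). Ppp3cb was at 324.6 and 522.2 in control and at 224.6 and 324.4 in anergic cells. Anergic array 2 and control array 1 differed by 0.2 intensity units, so the groups touched without overlapping. The means were 423 ± 140 and 274.5 ± 70.6 (SD, n = 2 each), and the log2 difference was -0.56 ± 0.36 (SE, 95% interval -1.39 to 0.27, adjusted p = 0.647 by limma). Ppp3cb was lower by -0.48 within the arrays numbered 1 and by -0.64 within those numbered 2, and Ppp3ca was higher by 0.63 and 0.24.

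Rcan1 encodes a protein that binds and inhibits calcineurin, and it is used as a reporter of NFAT activity. Its probe set was at 481.1 and 296.4 in control and at 464.6 and 343.3 in anergic cells. The groups overlapped fully, with both arrays numbered 1 above both arrays numbered 2. The means were 389 ± 131 and 404 ± 85.8 (SD, n = 2 each), and the log2 difference was 0.07 ± 0.35 (SE, 95% interval -0.72 to 0.87, adjusted p = 0.972 by limma). The interval leaves room for a 1.83-fold rise and for a 1.65-fold fall. The inner start, shown above with its 3 NFAT cores, and the outer start could not be separated in this value.

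**Figure D2:**
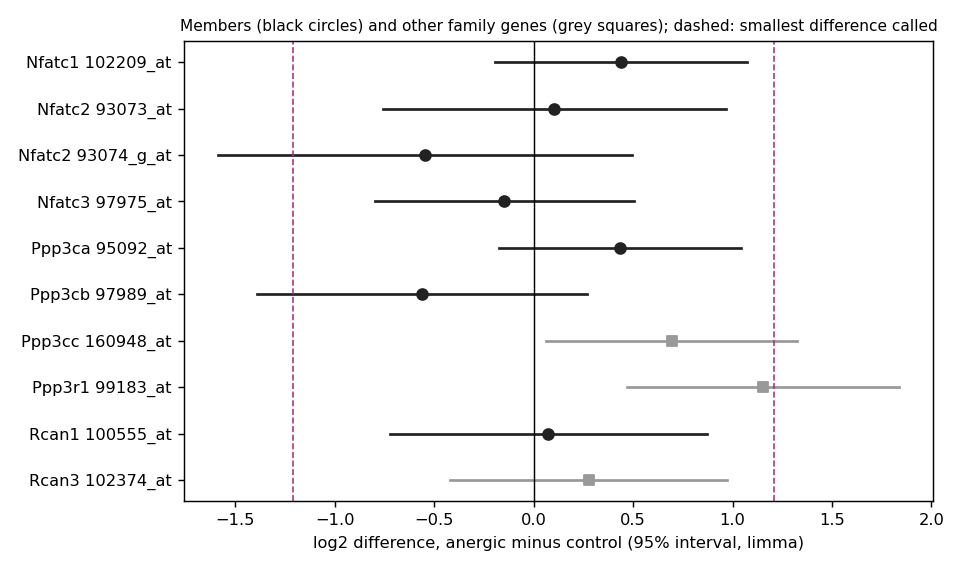
Log2 difference between anergic and control arrays (points) with the 95% interval from limma (lines) for the 7 member probe sets that passed the filter and for 3 further family genes. All member intervals include 0, and the dashed lines stand at 1.21, the smallest difference called on the array.

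The ratio of related genes within an array is little affected by one scaling factor per array, and it was computed on the log2(value + 29.15) scale for all 4 pairs of members with the same role, from the brightest probe set of each. Probe sets differ in brightness for reasons of design, so only the change of a ratio can be read. The log2 ratio of Ppp3ca to Ppp3cb was 2.66 and 1.83 on the control arrays and 3.77 and 2.72 on the anergic arrays. The groups were separated by the narrow gap between 2.66 and 2.72, and the ratio was higher in anergic cells by 0.995, which was 1.11 within the arrays numbered 1 and 0.88 within those numbered 2. The change was 1.05 with no pseudocount and 0.878 after quantile normalization. For Nfatc1 over Nfatc3 the log2 ratio was 0.24 and -0.45 in control and 0.57 and 0.40 in anergic cells, higher by 0.59. The changes of Nfatc1 over Nfatc2 (0.34) and of Nfatc2 over Nfatc3 (0.25) came with overlapping groups. With 2 arrays a group an exact permutation p, two-sided, is at least 0.333, so these ratios are given as values without a test.

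Array number went with several of these genes as much as group did. The log2 gap between the control arrays (array 2 minus array 1) was 0.72 for Nfatc2 at 93073_at, 0.64 for Ppp3cb, -0.65 for Rcan1 and -0.40 for Nfatc1. Between the anergic arrays it was 0.71, 0.48, -0.41 and 0.23 for the same genes. The first 3 thus had gaps of the same sign in both groups, and Nfatc1 had not. Nfatc3 at 97975_at (0.29 in control, 0.40 in anergic) and Ppp3ca (-0.19 and -0.57) also had gaps of the same sign. Nfatc2 at 93074_g_at had gaps of opposite sign (0.61 and -0.45). The labels do not say what the number stands for.

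**Figure D3:**
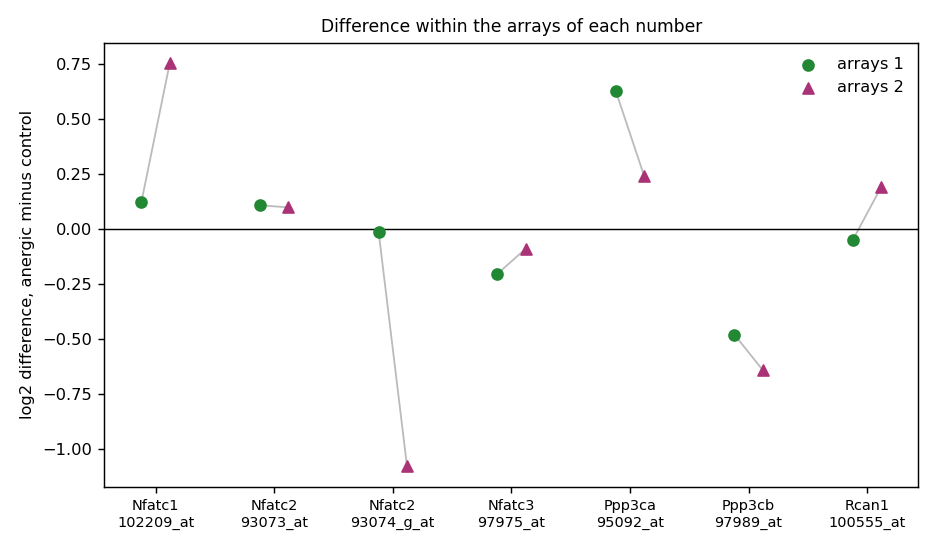
Log2 difference between the anergic and the control array of the same number for the 7 probe sets tested, with circles for arrays numbered 1 and triangles for arrays numbered 2, joined by a line for each probe set. Nfatc1, Nfatc2 (93073_at) and Ppp3ca lie above 0 and Ppp3cb and Nfatc3 below 0 for both numbers, while Rcan1 lies on either side of it. Nfatc2 (93074_g_at) also lies below 0, at -0.01 for arrays numbered 1 and at -1.08 for arrays numbered 2.

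Other genes of the family were read from 1 probe set a gene, the one with the highest mean, in a fit over 5583 genes, of which 2.17% were called, 1.33% higher and 0.842% lower in anergic cells. Of 7 further family genes 3 were on the array, and 0 of these 3 were called by limma. An unadjusted p under 0.05 was found for 2 of them, and for 12.7% of all genes. All 3 were higher by sign, with a median log2 difference of 0.69 against -0.09 over all genes. Ppp3r1, the regulatory subunit that binds calcium, was at 2326 and 1381 in control and at 4576 and 3542 in anergic cells. Its groups were clearly separated, with means of 1853.5 ± 669 and 4059 ± 731 (SD, n = 2 each), 2.23-fold apart. The log2 difference was 1.15 ± 0.29 (SE, 95% interval 0.50 to 1.81, adjusted p = 0.0897 by limma), which did not pass. A fit without 1 array leaves a group with 1, takes the spread from the other group alone and assumes that the lone array varies alike. In such fits Ppp3r1 passed without control array 1 (1.52, adjusted p = 1.81e-05). It did not pass in the other 3, at 0.78 when control array 2 was left out (adjusted p = 0.0969), at 0.97 for anergic array 1 (adjusted p = 0.548) and at 1.34 for anergic array 2 (adjusted p = 0.17). Ppp3cc, the gamma catalytic subunit, was at 572.9 and 779.1 in control and at 1185 and 1021 in anergic cells, a log2 difference of 0.70 ± 0.28 (SE, adjusted p = 0.317 by limma). Rcan3, a relative of Rcan1, was at 370.7 and 522.7 in control and 502.9 and 578.8 in anergic cells (0.28 ± 0.31, SE, adjusted p = 0.83 by limma). Of the calcineurin genes, Ppp3ca, Ppp3cc and Ppp3r1 thus had anergic arrays above control arrays and Ppp3cb below, and none passed the threshold.

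No gene was called among the steps before calcineurin. Of 15 genes from the receptor to calcium entry 7 were tested, 0 were called in limma, and 1 had an unadjusted p under 0.05. That was Lcp2, the adaptor SLP-76, at 3126 and 3328 in control and 5507 and 5491 in anergic cells (log2 difference 0.76 ± 0.22, SE, adjusted p = 0.135). The potassium channel gene Kcnn4, which sustains calcium entry, was at 0.59 (adjusted p = 0.522), the calcium release channel gene Itpr2 at -0.10, turning sign with centring, and Plcg1, the phospholipase that starts the calcium signal, at -0.16. The other probe sets of Itpr2 disagreed, with 101442_f_at at 0.02. Below the filter and fitted without it, 94565_at was at 1.23 (adjusted p = 0.546 by limma) and 96420_at at -0.70 (adjusted p = 0.727 by limma). The list median was -0.03. Of 8 genes listed under calcium buffering and removal 4 were tested and 0 were called, 2 with an unadjusted p under 0.05. These were the pumps that return calcium to the endoplasmic reticulum, and both had every anergic array below every control array. Atp2a3 was at 2669 and 2600 in control and at 1490 and 1265 in anergic cells (-0.93 ± 0.24, SE, adjusted p = 0.093 by limma). Atp2a2 was at 289.1 and 332.4 in control and at 189.2 and 124.2 in anergic cells (-0.89 ± 0.38, SE, adjusted p = 0.361 by limma). Canx, an endoplasmic reticulum chaperone that binds calcium, was at -0.09 and turned sign with centring, and S100a10, an S100 family gene, was at -0.30 and turned sign with quantile normalization. The median of the 4 tested genes, S100a10 among them, was -0.59, against -0.09 over all genes.

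Regulators acting on calcineurin and NFAT showed no called gene. Of 15 calmodulin and calcineurin partners 6 were tested, 0 were called in limma and 0 had an unadjusted p under 0.05, with a median of -0.09. Fkbp1a, the partner through which tacrolimus inhibits calcineurin, was at -0.23 ± 0.24 (SE, adjusted p = 0.804), the calmodulin-dependent kinase gene Camk4 at -0.22 and the scaffold gene Homer2 at -0.24. The scaffold gene Homer3 was at 29.5 and 242.3 in control and at 212.3 and 246.5 in anergic cells, so its difference of 1.03 rested on control array 1. It was -0.07 without that array, and 2.14 and called without control array 2 (adjusted p = 0.0304). Of 12 kinases and export factors that move NFAT out of the nucleus 9 were tested, with 0 called in limma, 0 with an unadjusted p under 0.05, a median of -0.01 and values between -0.43 for Mapk14 and 0.35 for Csnk1d. Mapk8 was at -0.29 and Dyrk1a at 0.18. The probe sets of Csnk1d, a casein kinase gene, ran from 0.14 to 1.25. The one at 1.25, 97264_r_at, was dimmer than the one used for the gene. It was at 337.2 and 366.3 in control and at 1022 and 751.8 in anergic cells. In the fit over probe sets its unadjusted p was 0.00244 and its adjusted p 0.106 by limma, so it did not pass.

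Among partners that bind DNA with NFAT 6 were higher and 5 lower by sign, and none passed. Of 18 listed 11 were tested, 0 were called by limma and 4 had an unadjusted p under 0.05. Junb, an AP-1 subunit, was at 1472 and 607.7 in control and at 5021 and 1807 in anergic cells (1.64 ± 0.49, SE, adjusted p = 0.161 by limma). Irf4, which binds beside NFAT at cytokine genes, was at 811.4 and 216.3 in control and at 2257 and 988.1 in anergic cells (1.75 ± 0.55, SE, adjusted p = 0.183 by limma). The AP-1 gene Fosb was at 2722.5 and 1399.5 in control and at 5964 and 2727 in anergic cells (1.04 ± 0.40, SE). Fos was at 396.1 and 661.1 in control and at 177.8 and 262.6 in anergic cells (-1.14 ± 0.37, SE). In Junb, Irf4 and Fosb both arrays numbered 1 were above the array numbered 2 of the same group. The groups did not overlap, as in 40.3% of all probe sets tested, and in Fosb they were separated by only 4.8 intensity units. In the fit without control array 1, whose spread comes from the anergic pair alone and which called 290 probe sets in place of 100, these 4 passed, at 2.26 for Junb, 2.64 for Irf4, 1.51 for Fosb and -1.49 for Fos. Irf4, Fosb and Fos passed in none of the other fits without 1 array, where adjusted p-values lay between 0.0651 and 0.962. Junb also passed without control array 2 (1.02, adjusted p = 0.0206) and without anergic array 2 (2.37, adjusted p = 0.018), and not without anergic array 1 (0.91, adjusted p = 0.742). The dimmer probe set of Fos, below the filter, was at 0.23.

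Among genes known as targets of NFAT some were called. Of 16 targets of T cell activation 10 were tested, 2 rose, 0 fell and 8 did not pass, with a median of 0.83. Over all genes 1.33% were called higher and 0.842% lower, with a median of -0.09. This list was chosen with earlier results of these data known, so its counts are not independent evidence. The chemokine gene Ccl3 rose from 717.4 and 573.3 to 4511 and 4604 (adjusted p = 0.000474 by limma). Ccl4 rose from 134.7 and 49 to 948.4 and 840.2 (adjusted p = 0.00442 by limma). Ifng was at 0.86 (adjusted p = 0.132) and the interleukin 2 receptor gene Il2ra at 1.17 (adjusted p = 0.17). With control array 1 as the lone control array both passed, at 1.01 and 1.61 (adjusted p = 0.0129 and 0.00367). Without control array 1 they did not (adjusted p = 0.157 and 0.452), nor without either anergic array. Il2, the classic target of NFAT with AP-1, was below the filter, between 2.8 and 6 on the 4 arrays. Of 20 genes tied to NFAT in anergic or unresponsive cells 13 were tested, 4 rose, 0 fell and 9 did not pass, with a median of 0.70. The shares and median over all genes are those given above. An unadjusted p under 0.05 was found for 6 of the 13, and for 12.7% of all genes. Ctla4, an inhibitory receptor gene named here after its values were seen, was at 3699 and 3022 in control and 2610 and 999.8 in anergic cells, without overlap (-1.03 ± 0.39, SE, adjusted p = 0.286 by limma).

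The 4 that rose were Egr2, Dgka, Tnfrsf9 and Crtam, which had been seen to rise in these arrays before the list was written, so neither their calls nor their place in this list is independent evidence. Egr2, a transcription factor gene, was at 955.9 and 657.6 in control and 3501 and 7914 in anergic cells. Dgka, the kinase that removes diacylglycerol, was at 490.5 and 749.7 and then at 1972 and 1742 (1.57, adjusted p = 0.0215 by limma). It missed the threshold when anergic array 1 was left out (1.48, adjusted p = 0.172). The same held for anergic array 2 (1.65, adjusted p = 0.0705) and for centring (1.67, adjusted p = 0.0957). Tnfrsf9, encoding 4-1BB, was at 2.64 and missed it when anergic array 1 was left out (2.29, adjusted p = 0.0539) and when its probe sets were averaged (1.21, adjusted p = 0.135), since the other one was at -0.22. Crtam, an adhesion receptor gene, was at 11.8 and 8.4 in control and 2429 and 2253 in anergic cells. Its control values lie below the pseudocount, which sets the size of its log2 difference: 5.92 here, 7.74 with a pseudocount of 1 and 3.87 with one at the array median, each past the threshold.

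**Figure D4:**
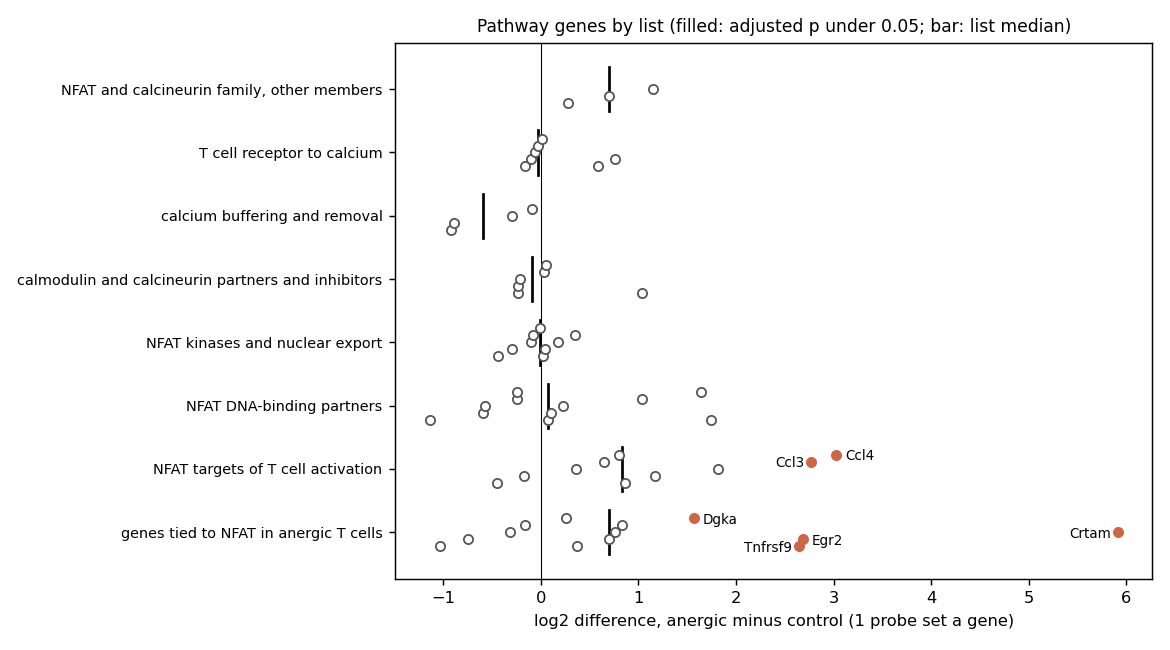
Log2 difference between anergic and control arrays of each pathway gene tested, 1 probe set a gene, by list, with filled points for genes that passed limma after Benjamini-Hochberg adjustment and a bar at each list's median. The 6 filled points, Ccl3, Ccl4, Dgka, Egr2, Tnfrsf9 and Crtam, lie in the last 2 lists. All lists were chosen with earlier results of these data known, the last with the rise of its 4 called genes known.

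The named genes whose log2 values over the 4 arrays, each centred on its own mean, lay nearest to those of each member were found by Euclidean distance. They were Incenp (0.06) and Tbl1xr1 (0.07) for Nfatc1, Krt84 (0.05) and Nek4 (0.05) for Nfatc2, and Sult4a1 (0.04) and Krt17 (0.04) for Nfatc3. For Ppp3ca they were Emd (0.06) and Krt36 (0.08), for Ppp3cb Tcf15 (0.05) and Maz (0.08), and for Rcan1 Eif2s3x (0.01) and Glmp (0.06). Eif2s3x was at 5997 and 3819 in control and 5833 and 4416 in anergic cells, which is the pattern of Rcan1 with both arrays numbered 1 high. With only 4 arrays many genes lie close to any profile: between 61 and 432 genes were within 0.25 of a member.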

How the data were processed

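The deposited values are array intensities on a linear scale, 1 for each of 12488 probe sets on each of 4 arrays. The sources used here do not give the scanner software or the summary of probes; the equal trimmed means show that arrays were scaled before deposit. GEO's platform annotation gave the gene names: 10833 had 1 gene symbol, 396 several and 1193 were not listed, and 10817 of the first were matched by gene ID to RefSeq (GRCm38.p6). Control probe sets (66) were left out. Intensities were transformed as log2(value + 29.15), the median over arrays of the 20th percentile, so differences of dim genes are understated. Probe sets with a mean log2 value above the 40th percentile were tested (7453), also as 5583 genes by the probe set with the highest mean. The groups were compared with limma 3.58.1 under R 4.3.3 (lmFit, eBayes with an intensity trend, two-sided, Benjamini-Hochberg at 0.05, 2 residual degrees of freedom). Scripts were tested on simulated data. Named are all members, the genes of each pathway list that passed and the 4 with the smallest p, a few genes singled out after their values were seen (Il2, Ctla4, Cd68 and cell markers), and 2 nearest profiles for each member. The members and lists were chosen with earlier results of these data known. The pseudocount, filter, scaling, arrays, replicate block and probe set rule were varied.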

Additional observations from a re-analysis of the deposited data

How the results depend on the processing

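No member probe set was called under any of the 11 alternatives, and the directions of Nfatc1, Ppp3ca, Ppp3cb and the 2 dimmer Nfatc2 probe sets stayed the same in all in which they were tested. Without 1 array the difference ranged from -0.25 to 0.46 for Nfatc2 (93073_at), -0.11 to 0.28 for Nfatc3 (102050_at), -0.35 to 0.0543 for Nfatc3 (97975_at) and -0.25 to 0.40 for Rcan1. Probe sets called, 100 (68 higher, 32 lower), were 59 (42 and 17) with no filter, 64 (52 and 12) with each array centred on its median, and 44 to 354 (27 to 211 higher, 12 to 143 lower) without 1 array. Centring moved the median difference of all probe sets from -0.09 to 0.02. Pathway genes called, 6, were 5 to 12 without 1 array. By list these ranged from 0 to 1 for other family members, 0 to 1 for calmodulin and calcineurin partners, 0 to 4 for DNA-binding partners and 2 to 5 for activation targets. Reversed signs elsewhere were Itpr2 (0.0101) and Canx (0.014) with centring, Canx with the mean of its probe sets (0.0627) and S100a10 with quantile normalization (0.12). Without 1 array ranges crossed 0 for Plcg1 (-0.48 to 0.16), Itpr2 (-0.33 to 0.14), Canx (-0.26 to 0.0794), Homer3 (-0.0734 to 2.14), Homer2 (-0.66 to 0.19), Camk4 (-0.56 to 0.13) and Dyrk1a (-0.11 to 0.46). The 4 within-array ratios kept their sign with no pseudocount and with quantile normalization, both chosen after seeing the data.

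Arrays share numbers across groups, and their deviations from the group means correlated across probe sets at 0.537. With 2 pairs and no label on the number, this is a hint from the data and pairing is not established. With the replicate number as a block, 761 probe sets were called (389 higher, 372 lower) and 0 of the members, with member adjusted p-values no lower than 0.144. There 24 pathway genes passed: 2 family members, Ppp3r1 and Ppp3cc, 1 from receptor to calcium, 2 of calcium removal, 4 DNA-binding partners, 7 activation targets and 8 anergy genes, in a fit with 1 residual degree of freedom.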
